A study of Arabidopsis thaliana with 9 samples.

Results

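The genes described here lie in the pericentromeres of Arabidopsis chromosomes 3 and 5, the stretches on either side of the centromeres where heterochromatin is dense and genes are sparse. They were chosen by position and by measured level, as the loci AT3G29500 to AT3G43300 and AT5G27300 to AT5G36200 by identifier, provided that a locus had TPM (transcript abundance scaled by gene length and library total) above 0 in a wild-type library and at least 1 TPM in any of the 9 libraries. Of 498 loci of the expression table in these ranges, 204 met both conditions and are called members below, 50 of 185 on chromosome 3 and 154 of 313 on chromosome 5. The members were also proposed with earlier results of these libraries known. On the arms of the same chromosomes, 7741 of 11294 loci met the same conditions on values, or 68.5%, against 41.0% in the ranges.

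Leaves of 3-week-old Arabidopsis thaliana plants, kept at 22 °C under 16 h light and 8 h dark, were profiled by RNA sequencing of total RNA. The 9 libraries comprised 3 of wild type (WT, accession Col), 3 of a mutant with the genotype atxr5;atxr5;atxr6hyp;atxr6hyp, called hyp/hyp here, and 3 of a mutant with the genotype atxr5;atxr5;atxr6hyp;atxr6c-1, called hyp/c-1. Both mutants therefore carried 2 copies of the atxr5 allele and at least 1 copy of atxr6hyp, and they differed in the other copy of ATXR6. The study's stated question concerned the further developmental abnormalities of the second mutant. The labels do not say whether replicates came from separate plants, so the p-values measure the spread between these libraries, which may be technical.

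ATXR5 and ATXR6 are plant histone methyltransferases that place a single methyl group on the H3K27 residue of histone H3 as chromatin is copied. In Arabidopsis the mark is dense in pericentromeric heterochromatin, and mutants of both enzymes are known for the loss of silencing of transposons there and for extra copying of heterochromatic DNA. Genes in such regions sit among silent repeats, and many of them still have ordinary functions in leaves. The amount of DNA was not measured in these libraries.

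The chromosome 3 members spanned 3.86 Mb, from position 11382214 to 15245281, and the chromosome 5 members spanned 4.62 Mb, from 9620810 to 14238072, on the RefSeq assembly TAIR10.1. In WT leaves the members were expressed at a median of 11.9 TPM, where genes of the arms that met the same conditions had 13.0 TPM. The chromosome 3 members had a median of 6.81 TPM and the chromosome 5 members 13.6 TPM. Of the members, 182 reached 1 TPM in a WT library and 22 reached it in mutant libraries only. These 22 entered through the mutants, so their higher mutant values follow in part from the way they were chosen and are given as a description with no test. In all, 187 members had a mean of at least 1 TPM over the 9 libraries and entered the test, 41 on chromosome 3 and 146 on chromosome 5, while 17 did not. Nearest inside the level condition were AT5G35510, AT5G28310, AT3G30305 and RECQSIM, with highest values of 1.0001, 1.01, 1.02 and 1.09 TPM. Nearest outside were AT3G29637, AT5G28420, AT5G35760 and AT3G43110, with 0.859, 0.812, 0.809 and 0.793 TPM.

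The libraries held 21289647 to 38766557 reads, recovered from the TPM values, and 3 reads in a gene of 2000 bp corresponded to 0.0825 to 0.149 TPM. Such floors, and all intervals given below, cover counting error only. ATXR5 had 4.23 to 4.38 TPM in WT, 1.496 to 2.05 in hyp/hyp plants and 1.53 to 1.70 in hyp/c-1 plants. ATXR6 had 40, 41 and 41 reads in WT replicates 1 to 3, then 0, 2 and 3 in hyp/hyp plants and 1, 0 and 2 in hyp/c-1 plants, so both genes followed the labels. The 3 leaf markers summed to 23776 to 25071 TPM in WT, 16309 to 20321 in hyp/hyp plants and 19605 to 29713 in hyp/c-1 plants. The 4 flower markers summed to at most 1.58 TPM in any library, tapetum markers to at most 0.189, seed markers to at most 0.259 and the 3 root markers to 7.86 to 21.8. In bulk leaves, a change in the share of a cell type and a change in RNA per cell cannot be told apart. On the second principal component, which took 30.5% of the variance, the replicates 3 of both mutants lay farthest from the other libraries, at 39.5 for hyp/hyp and -41.4 for hyp/c-1. Members whose call rested on them are named below.

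A run of loci on chromosome 3 held 4 members with higher values in both mutants, and 3 of them entered the test. Of these 3, AT3G29631 was expressed in WT. AT3G29639 and AT3G29633 were under 1 TPM in every WT library, as was AT3G29645, which was too low to be tested. The members under 1 TPM in WT were chosen only through their mutant values, which are given as a description. AT3G29633, AT3G29631 and AT3G29639 lie with AT3G29645 within 28.7 kb. The promoters of AT3G29639 and AT3G29631 were nearly the same sequence, and they are shown because both genes were far higher in the mutants. The sequences are the 250 bases before the annotated start of each gene, read 5′ to 3′ on the gene's strand from the RefSeq assembly TAIR10.1, and capitals mark the bases that differ or are unpaired between them.
AT3G29639, chr3:11480034-11480283, minus strand: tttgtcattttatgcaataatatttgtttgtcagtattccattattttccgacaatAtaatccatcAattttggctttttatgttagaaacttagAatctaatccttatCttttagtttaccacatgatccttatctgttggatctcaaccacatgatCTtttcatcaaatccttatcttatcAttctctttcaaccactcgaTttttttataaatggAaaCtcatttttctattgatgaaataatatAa
AT3G29631, chr3:11470822-11471071, minus strand: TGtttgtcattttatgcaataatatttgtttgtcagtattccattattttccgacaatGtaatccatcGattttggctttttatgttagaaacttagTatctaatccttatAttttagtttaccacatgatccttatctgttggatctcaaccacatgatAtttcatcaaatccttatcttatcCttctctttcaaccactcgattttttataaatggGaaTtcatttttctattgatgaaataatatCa
Of 248 aligned bases, 239 were identical, or 96.4%. Among 27444 promoters of this length, no other shared 10 or more stretches of 20 bases with this pair. Likeness in the run was not limited to these 2 genes. The promoters of AT3G29637 and AT3G29645, whose means stayed under 1 TPM in each genotype, shared 49 such stretches, with 93 of 97 aligned bases identical. Likeness was looked for after the values of the genes had been seen.

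AT3G29639, an uncharacterised gene at chromosome 3, 11478633 to 11480033, had 0.670, 0.864 and 0.816 TPM in WT. It had 28.2, 30.2 and 16.8 TPM in hyp/hyp plants and 36.2, 33.2 and 51.6 TPM in hyp/c-1 plants, so each mutant library lay far above each WT library. Its mean was 0.784 ± 0.101 TPM in WT, 25.1 ± 7.24 in hyp/hyp plants and 40.3 ± 9.87 in hyp/c-1 plants (SD, n = 3), or 32.0 and 51.4 times the WT mean. Of its 50-base stretches, 11.7% occur elsewhere in the genome, so some of its reads may be shared with copies.

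AT3G29631, annotated as a nuclease, lies at chromosome 3, 11470374 to 11470821. It had 10.8, 9.31 and 11.96 TPM in WT, 93.9, 76.8 and 52.3 in hyp/hyp plants and 76.3, 115 and 129 in hyp/c-1 plants. The mutant values did not overlap those of WT, and this member was well expressed in WT, so its level did not depend on the mutants for its choice. The log2 difference on the scale log2(TPM + 1) was 2.66 (SE 0.23, adjusted p = 7.37e-05 by limma) in hyp/hyp plants and 3.18 (adjusted p = 1.62e-05) in hyp/c-1 plants, or 6.96 and 9.98 times the WT mean. A long noncoding RNA gene, AT3G05845, overlaps it on the opposite strand, and whether the counting used strand is not given in the sources used here. AT3G29631 and AT3G29639 did not pass the test between the mutants, with adjusted p-values of 0.193 and 0.101.

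The other loci of the run were lower. AT3G29633, uncharacterised, had 0.675, 0.594 and 0.701 TPM in WT, 3.43, 3.50 and 4.53 in hyp/hyp plants and 4.80, 2.64 and 4.02 in hyp/c-1 plants, with no overlap between mutants and WT and 5.82 times the WT mean in both mutants. AT3G29645 had 1 read in each WT library, 11, 2 and 6 in hyp/hyp plants and 11, 13 and 9 in hyp/c-1 plants, too few to be tested. Between them, AT3G29635 and AT3G29636 had no read in WT and at most 12 and 6 in a mutant library. AT3G29637 and AT3G29638 stayed under 1 TPM in every library, on at most 13 and 27 reads, but every mutant library lay above every WT library. AT3G29637 had means of 0.112 TPM in WT, 0.381 in hyp/hyp plants and 0.656 in hyp/c-1 plants, and AT3G29638 had 0.141, 0.531 and 0.474. These 2 loci were not members and were not tested. AT3G29630, the locus before the run, had 1 read in 1 hyp/c-1 library and none elsewhere.

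**Figure D1:**
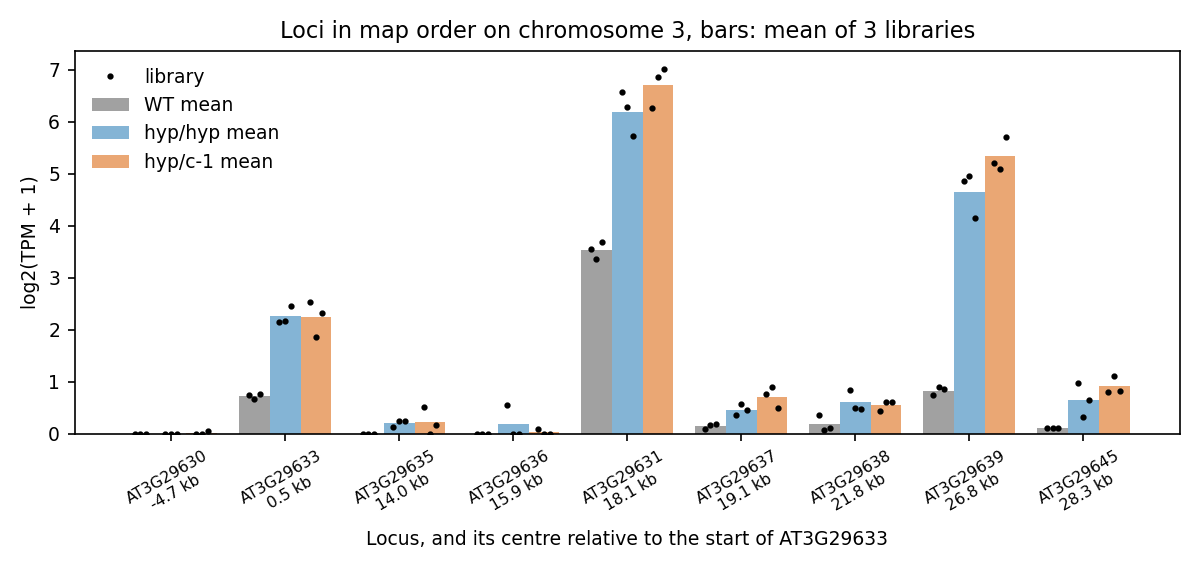
Expression of 9 neighbouring loci on chromosome 3 in map order, as log2(TPM + 1), with bars for the mean of 3 libraries per genotype and points for single libraries. The values under the names are the distance in kb of each locus's centre from the start of AT3G29633. AT3G29631 and AT3G29639 stand out in both mutants, while AT3G29637 and AT3G29638 between them remain under 1 TPM, though also higher in the mutants than in WT.

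Among the members called in both mutants, AT5G29560, AT5G35120 and AT5G35050 on chromosome 5 had the fewest reads in WT. All of these entered through their mutant values. Untested members could be as low: AT5G28090 had 1, 0 and 0 reads in WT and AT5G27765 had 0, 0 and 1. The mutant libraries of AT5G27765 overlapped WT. AT5G29560, a gene of the caleosin family, whose products bind calcium on oil bodies, lies at 11190414 to 11191967. It had 0, 0 and 1 read in WT, 404, 286 and 349 in hyp/hyp plants and 327, 223 and 212 in hyp/c-1 plants. Its level was 18.6, 18.3 and 17.0 TPM in hyp/hyp plants and 11.6, 10.4 and 9.33 TPM in hyp/c-1 plants, so the mutants overlapped neither WT nor each other. Per unit of depth, reads were 1240 times those of WT in hyp/hyp plants (95% counting interval 222 to 49025) and 735 times in hyp/c-1 plants (132 to 29069). These intervals, and those of AT5G35120 and AT5G35050 below, pool the reads of each genotype and leave out the spread between replicates. They are a description and no test, because the choice of these members rested on the mutant values. Between the mutants, a contrast that the choice of members did not rest on, its level fell by 0.73 on the log2 scale from hyp/hyp to hyp/c-1 (adjusted p = 0.0191 by limma). This was 1.72-fold, under the log2 difference of 1 that a call needed here, and each of 3 hyp/c-1 libraries was below each hyp/hyp library. The difference did not pass in a fit of only the 2 mutants (adjusted p = 0.0943 by limma).

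The promoter of AT5G29560 is shown because it was the only one, among the members called in both mutants, with a match to the palindromic motif bound by SOG1, the regulator of the plant DNA damage response. The motif is CTT and AAG with 7 bases of any kind between them, which reads the same on both strands, and capitals mark the match.
AT5G29560, chr5:11191968-11192217, minus strand: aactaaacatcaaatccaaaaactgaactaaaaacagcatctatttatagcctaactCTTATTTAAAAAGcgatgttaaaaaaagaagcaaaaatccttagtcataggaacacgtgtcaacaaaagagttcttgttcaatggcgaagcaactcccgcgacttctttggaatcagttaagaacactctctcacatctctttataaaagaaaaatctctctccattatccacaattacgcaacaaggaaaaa
Such a match was found in 9.71% of all 27444 promoters, in 16 of the 204 members (7.84%) and in 1 of the 12 members called in both mutants; the members' share lay below that of all promoters. The evening element, AAAATATCT on either strand, was in 2.36% of all promoters and in 9 members (4.41%), and the E2F motif, TTTCCCGC or TTTGGCGC on either strand, was in 0.958% and in 2 members (0.98%). Neither was in a promoter of the 12. A match describes letters in this window and not a bound site.

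AT5G35120, a gene of the MADS-box transcription factor family at chromosome 5, 13386852 to 13387175, had 1, 0 and 0 reads in WT, 51, 31 and 24 in hyp/hyp plants and 93, 55 and 140 in hyp/c-1 plants. Its TPM was 11.2, 9.49 and 5.61 in hyp/hyp plants and 15.8, 12.3 and 29.6 in hyp/c-1 plants, far above WT in each library. Reads per depth were 127 times (22.2 to 5043) and 278 times (49.5 to 11009.9) those of WT. Its log2 difference between the mutants was 1.004, with an adjusted p of 0.0877 by limma, which did not pass.

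AT5G35050, a gene of unknown function with a DUF1985 domain, had 0, 0 and 1 read in WT against 56, 33 and 33 in hyp/hyp plants and 91, 32 and 38 in hyp/c-1 plants. These were 146 times (25.6 to 5798) and 155 times (27.5 to 6171) the reads of WT per depth. It lies within 76.1 kb of AT5G35120, and the members between them did not follow. OS9, an ER lectin of protein quality control, had 11.8 ± 0.772 TPM in WT, 13.0 ± 0.33 in hyp/hyp plants and 14.5 ± 1.60 in hyp/c-1 plants (SD, n = 3), and the cyclophilin gene AT5G35100 had 63.4, 51.6 and 54.2 TPM on average. On chromosome 3, AT3G32920, a P-loop nucleoside triphosphatase gene that overlaps a pseudogene on its own strand, had 9, 7 and 5 reads in WT, 110, 78 and 124 in hyp/hyp plants and 180, 91 and 101 in hyp/c-1 plants. That was 18.0 and 16.8 times the WT mean TPM, again with no overlap. Under quantile normalization its log2 differences were 0.91 and 0.86, below the minimum for a call.

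Summed over the 22 members that stayed under 1 TPM in WT, expression was 6.52 to 8.28 TPM in WT libraries and 65.9 to 112 TPM in mutant libraries. Of the 17 members too low to be tested, 6 had all 6 mutant libraries above all WT libraries, which held for 18.5% of the 821 genes of the whole table that met the level conditions and were too low to be tested. AT3G33528, uncharacterised, went from a mean of 0.104 TPM in WT to 1.35 over the mutants, AT3G42570, a peroxidase gene, from 0.269 to 1.13, and AT5G28090 from 0.0169 to 1.10. AT3G42725, AT3G42850 and AT3G29645 had mutant means of 1.02, 0.946 and 0.744 TPM. No untested member had all mutant libraries below WT. AT5G33370, a GDSL-like lipase gene, had 45, 3 and 34 reads in WT, 3, 1 and 2 in hyp/hyp plants and 2, 0 and 1 in hyp/c-1 plants. It overlapped WT through the low WT replicate 2. AT3G30460, a RING/U-box gene, was below all WT libraries in every mutant library except hyp/c-1 replicate 3.

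Among members already expressed in WT, both mutants had more members above WT than below. Of 179 tested members with at least 1 TPM in a WT library, 11 were called in hyp/hyp plants, which required an adjusted p under 0.05 together with a log2 difference of 1 or more in size, and 10 of these were higher and 1 lower. Over all 17431 tested genes with at least 1 TPM in a WT library, 2.39% met this rule, 1.88% higher and 0.511% lower. The hyp/c-1 plants had 8 of the 179 called, all higher, where 2.65% of all such genes passed the same rule, with 2.06% on the higher side and 0.591% on the lower. Both comparisons used the same WT libraries and are therefore not independent of each other.

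On the arms of the same chromosomes 170 of 7338 genes expressed in WT (2.32%) were called in hyp/hyp plants and 203 (2.77%) in hyp/c-1 plants. By chromosome, 5 of 38 such members were called on chromosome 3 and 6 of 141 on chromosome 5 in hyp/hyp plants, and 4 on each in hyp/c-1 plants.

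Another 6 members passed the same thresholds in both mutants but were under 1 TPM in all WT libraries: AT3G29639, AT3G29633, AT3G32920, AT5G29560, AT5G35120 and AT5G35050. They passed the level conditions only through the mutants, so their higher values are no independent result and nothing is read from counts that hold them. With them the count was 17 of 187 in hyp/hyp plants (16 higher, 1 lower), where 2.86% of all 17682 tested genes were called (2.36% higher, 0.503% lower). In hyp/c-1 plants it was 14, all higher, where 3.2% were called (2.61% higher, 0.583% lower). The 12 members called in both, these 6 included, made up 70.6% of the hyp/hyp list and 85.7% of the hyp/c-1 list. The matching share over all called genes is not given here and both lists rest on the same WT libraries, so nothing is read from this sharing.

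**Figure D2:**
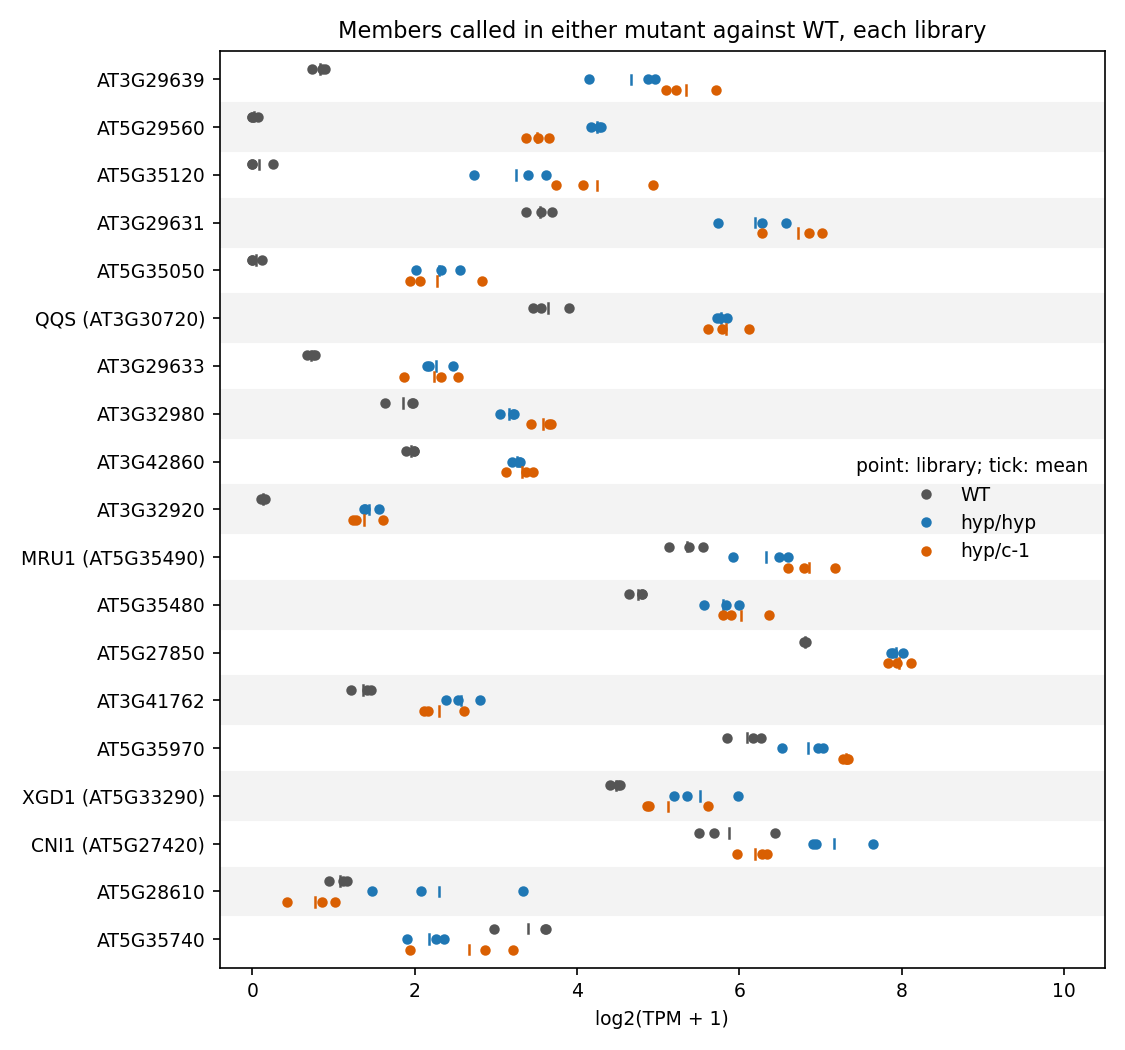
Expression of the 19 members called in either mutant against WT, on a log2(TPM + 1) axis, with 1 point per library and a vertical tick at the mean of each genotype. In 12 members both mutants were called higher, 6 of which became members only through their mutant values, AT5G35740 at the bottom was called lower in hyp/hyp plants, and CNI1 and AT5G28610 lay apart from WT in hyp/hyp plants but not in hyp/c-1 plants.

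QQS (AT3G30720), a gene known only from Arabidopsis thaliana that shifts carbon between starch and protein, lies at chromosome 3, 12349047 to 12349933. It had 10.02, 14.0 and 10.7 TPM in WT, 51.7, 56.7 and 53.3 in hyp/hyp plants and 54.1, 47.8 and 68.3 in hyp/c-1 plants. All mutant libraries were above all WT libraries, and the mutants overlapped each other. The log2 difference was 2.14 (SE 0.14, adjusted p = 1.26e-05 by limma) in hyp/hyp plants and 2.20 (adjusted p = 8.08e-06) in hyp/c-1 plants, or 4.66 and 4.90 times the WT mean.

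AT3G32980, a class III peroxidase gene whose kind of enzyme acts in cell walls and defence, had 2.11, 2.92 and 2.93 TPM in WT, 7.25, 8.27 and 8.30 in hyp/hyp plants and 9.77, 11.8 and 11.5 in hyp/c-1 plants. None of the 3 groups overlapped. It rose 2.99-fold in hyp/hyp plants (log2 difference 1.30, adjusted p = 0.000132 by limma) and 4.16-fold in hyp/c-1 plants (1.72, adjusted p = 1.34e-05), and the difference between the mutants did not pass (0.43, adjusted p = 0.0792).

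AT3G42860, a zinc knuckle protein gene, had 2.97, 2.71 and 2.98 TPM in WT, 8.15, 8.84 and 8.76 in hyp/hyp plants and 10.01, 9.38 and 7.71 in hyp/c-1 plants. It stood 2.97 and 3.13 times above WT, with adjusted p-values of 4.34e-05 and 2.45e-05 by limma and no overlap with WT.

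AT5G27850, which encodes the ribosomal protein L18 of the large cytosolic subunit, was the called member with the highest expression in WT. It had 110, 112 and 111 TPM in WT, 258, 232 and 237 in hyp/hyp plants and 244, 275 and 227 in hyp/c-1 plants, so the mutants lay together well above WT. The log2 differences of 1.12 and 1.15 passed at adjusted p-values of 3.26e-05 and 2.03e-05 by limma, or 2.18 and 2.24 times the WT mean. The protein-coding gene AT5G27860 overlaps it on the opposite strand, at 59.6 ± 7.97 TPM in WT, 77.9 ± 6.42 in hyp/hyp plants and 62.9 ± 10.2 in hyp/c-1 plants (SD, n = 3), and reads of the 2 genes could be shared if strand was not used.

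A pair of neighbours on chromosome 5, within 2.70 kb, moved alike. The uncharacterised AT5G35480 had 26.8, 24.0 and 26.9 TPM in WT, 62.6, 56.3 and 46.1 in hyp/hyp plants and 54.6, 58.4 and 81.3 in hyp/c-1 plants, or 2.12 and 2.5 times the WT mean (adjusted p = 0.00182 and 0.000541 by limma). MRU1 (AT5G35490), a gene found through its rise in plants that accumulate methionine, had 40.5, 34.1 and 45.7 TPM in WT, 95.7, 88.5 and 59.4 in hyp/hyp plants and 95.9, 110 and 144 in hyp/c-1 plants. Neither gene overlapped WT in a mutant. The hyp/hyp difference of AT5G35480 was 1.05, and it was just under 1 without WT replicate 2 (0.997), without hyp/hyp replicate 1 (0.95) and under 3 other scalings of the libraries. MRU1 was called in hyp/c-1 plants (log2 difference 1.51, adjusted p = 0.000838 by limma), and in hyp/hyp plants its log2 difference of 0.98 (adjusted p = 0.00775) lay just under the minimum of 1. The next members upstream, AT5G35460 and the disease resistance gene AT5G35450, had 31.4 and 9.23 TPM in hyp/hyp plants against 21.6 and 6.34 in WT. The next members downstream did not share this: the kinetochore gene MIS12 had means of 7.73 TPM in WT, 7.23 in hyp/hyp plants and 6.79 in hyp/c-1 plants, AT5G35525 had 3.61, 2.29 and 2.69, and the resistance gene AT5G35510 had 0.628, 0.823 and 0.619.

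The remaining calls were made in 1 mutant only, which does not show that the mutants differ. CNI1 (AT5G27420), a RING ubiquitin ligase of the carbon and nitrogen response, had 50.6, 44.3 and 85.8 TPM in WT, 122, 119 and 199 in hyp/hyp plants and 76.5, 79.9 and 61.9 in hyp/c-1 plants. Its hyp/hyp libraries lay above all others, with a log2 difference from WT of 1.29 (adjusted p = 0.00706 by limma), while hyp/c-1 overlapped WT (0.32, adjusted p = 0.428) and the test between the mutants did not pass (adjusted p = 0.0682). AT5G35970, a P-loop nucleoside triphosphatase gene, had 71.0, 56.7 and 75.9 TPM in WT, 124, 129 and 91.3 in hyp/hyp plants and 154, 160 and 160 in hyp/c-1 plants, with a call in hyp/c-1 plants (1.22, adjusted p = 0.000425 by limma) and 0.75 (adjusted p = 0.00604) in hyp/hyp plants.

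XGD1, a xylosyltransferase of pectin synthesis, had 20.2, 22.0 and 21.7 TPM in WT against 35.7, 40.0 and 62.0 in hyp/hyp plants and 48.0, 28.1 and 28.7 in hyp/c-1 plants. It was called in hyp/hyp plants (1.03, adjusted p = 0.0115 by limma) and did not pass in hyp/c-1 plants (0.64, adjusted p = 0.0745), although no mutant library fell in the WT range. The hyp/hyp difference was 0.80 without hyp/hyp replicate 3, 0.998 without WT replicate 1 and 0.96 under quantile normalization, each under the minimum for a call. AT3G41762, uncharacterised, was called in hyp/hyp plants at 1.21 (adjusted p = 0.0011 by limma) and was at 0.93 (adjusted p = 0.00351) in hyp/c-1 plants. Of its 50-base stretches 75.5% occur elsewhere in the genome and it overlaps 3 noncoding RNA genes, so its reads are uncertain. The single member called lower was AT5G35740, which encodes an X8 domain protein of the kind that binds carbohydrate in cell walls. It had 11.3, 11.1 and 6.88 TPM in WT, 4.14, 3.799 and 2.74 in hyp/hyp plants and 2.83, 6.29 and 8.23 in hyp/c-1 plants, 2.74-fold lower in hyp/hyp plants (log2 difference -1.22, adjusted p = 0.018 by limma) and overlapping WT in hyp/c-1 plants (-0.73, adjusted p = 0.118). Its call did not pass without WT replicate 1, WT replicate 2 or hyp/hyp replicate 3, at adjusted p-values of 0.0741, 0.0708 and 0.0531.

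AT5G28610, annotated as like an RNA helicase, was called in hyp/hyp plants, where replicate 3 stood apart. It had 1.17, 0.924 and 1.25 TPM in WT, 1.78, 3.22 and 9.08 in hyp/hyp plants and 1.03, 0.817 and 0.342 in hyp/c-1 plants. The log2 difference of 1.22 (adjusted p = 0.0472 by limma) became 0.70 (adjusted p = 0.0622) without hyp/hyp replicate 3, and the call was also lost without hyp/hyp replicate 2, any WT replicate or replicate 1 or 2 of hyp/c-1, with adjusted p-values from 0.0565 to 0.13. It was lost as well with only the 2 genotypes compared (0.0627), quantile normalization (0.0646), voom on recovered reads (0.0665) and no expression minimum (0.0733).

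**Figure D3:**
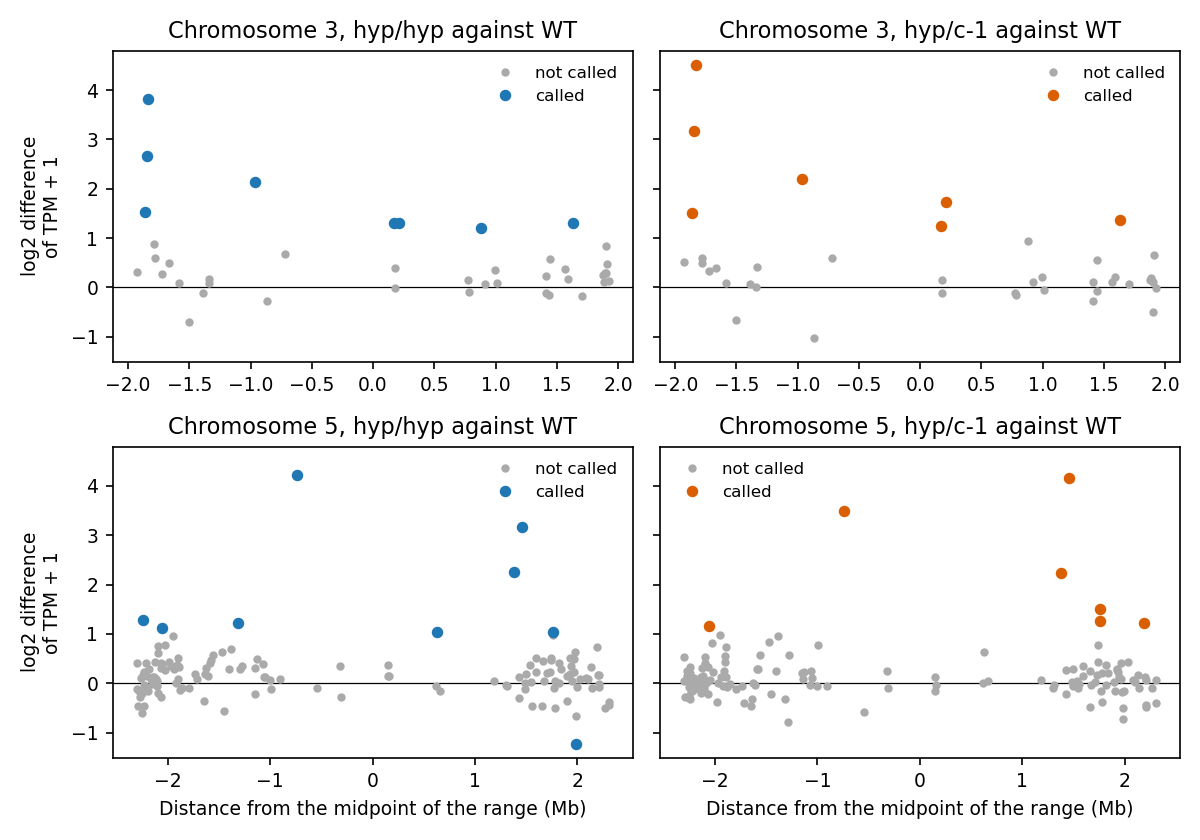
The log2 difference from WT of each of the 187 tested members against its distance in Mb from the midpoint of the range, for chromosome 3 (top) and 5 (bottom) in hyp/hyp plants (left) and hyp/c-1 (right). Coloured points were called. On chromosome 3 the called members spread from the left edge to 1.63 Mb right of the midpoint. On chromosome 5 the greatest differences, at AT5G29560 and AT5G35120, lie 0.738 Mb left and 1.46 Mb right of it. These 2 are among 6 called members that became members only through their mutant values. The greatest differences of chromosome 5 members with at least 1 TPM in a WT library were 1.29 in hyp/hyp plants and 1.51 in hyp/c-1 plants.

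By adjusted p alone, 53 of the 179 members expressed in WT passed in hyp/hyp plants, 37 higher and 16 lower, where 20.2% of all such genes passed, 10.7% higher and 9.44% lower. In hyp/c-1 plants, 36 passed, 31 higher and 5 lower, where 19.6% of all such genes passed, 10.3% higher and 9.34% lower. The median log2 difference of these members was 0.15 in hyp/hyp plants against 0.05 for genes of the arms, and 0.06 in hyp/c-1 plants against -0.03. These medians are well under the log2 difference of 1 that a call required. Over all 187 tested members the hyp/c-1 median was 0.0726, and it became 0.128 without hyp/c-1 replicate 3 and 0.0455 without hyp/c-1 replicate 1.

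The same gap appeared in each mutant library. The median of the tested members, taken relative to the WT mean, minus that of the arms was 0.111, 0.131 and 0.118 in hyp/hyp plants and 0.130, 0.0974 and 0.104 in hyp/c-1 plants. With only genes expressed in WT it was 0.0990, 0.104 and 0.0970, then 0.118, 0.0982 and 0.0962. In the WT libraries it was 0.00249, -0.00621 and 0.00188, near 0 by construction because WT was the reference. All 204 members together took 0.671% to 0.673% of all TPM in WT and 0.718% to 0.759% in the mutants. This sum holds the 22 members that entered through the mutants, so its rise follows in part from the choice. The 22 had 6.52 to 8.28 TPM of a sum of 6705 to 6735 in WT, and 65.9 to 112 of 7179 to 7591 in the mutants.

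**Figure D4:**
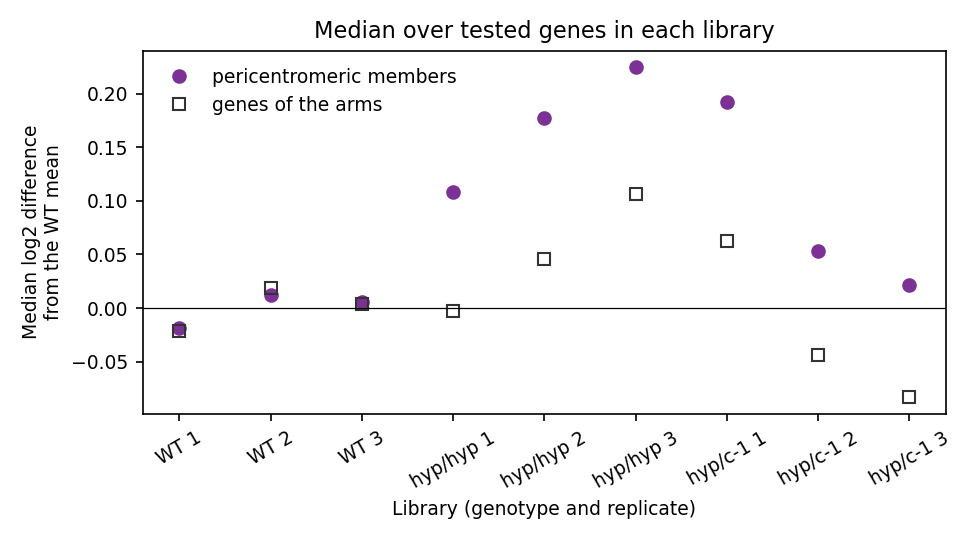
The median log2 difference from the WT mean in each library, over the 187 tested members (filled circles) and over tested genes of the arms of chromosomes 3 and 5 (open squares). The members lie above the arms by 0.0974 to 0.131 in the 6 mutant libraries, while both sets shift together between libraries.

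Distance from the midpoint of each range gave a graded picture among genes with at least 1 TPM in a WT library. Within 1 Mb, 22 genes had a median log2 difference of 0.15 in hyp/hyp plants and 0.08 in hyp/c-1 plants. From 1 to 2 Mb, 101 genes had 0.21 and 0.11, and from 2 to 3 Mb, 334 genes, of which 56 were members, had 0.09 and 0.04. The medians then declined to 0.03 and -0.06 in 2173 genes 10 to 16 Mb away. The share that passed higher by adjusted p went from 36.4% of the innermost genes to 8.56% of the outermost in hyp/hyp plants, and from 22.7% to 8.56% in hyp/c-1 plants. Genes of 1 chromosome are not independent replicates, and these values are a description.

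**Figure D5:**
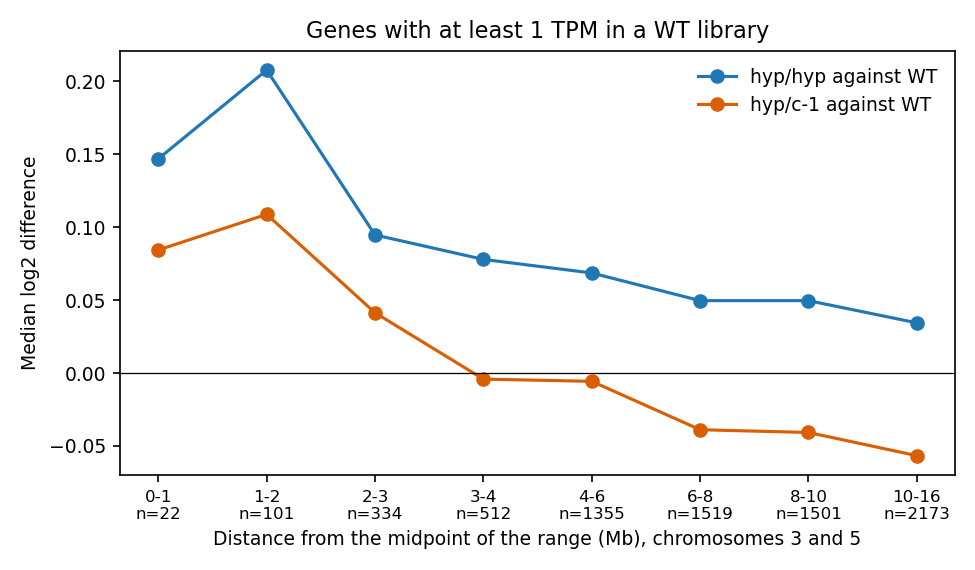
The median log2 difference from WT of genes on chromosomes 3 and 5 with at least 1 TPM in a WT library, by distance in Mb from the midpoint of the pericentromeric range, with the number of genes under each bin. The medians in hyp/hyp plants lie above those in hyp/c-1 plants in each bin, and in both mutants the bin from 1 to 2 Mb is the highest.

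The members were also grouped by function in lists drawn up with earlier results of these libraries known, so the counts and medians of the lists describe them and are no independent evidence of a direction. The stress, defence and protein folding genes had median log2 differences of 0.79 in hyp/hyp plants and 0.52 in hyp/c-1 plants, where the median over all tested genes was 0.06 and -0.02. By adjusted p alone, 20.8% of all tested genes passed in hyp/hyp plants, 11.5% higher and 9.3% lower, and 20.4% passed in hyp/c-1 plants, 11.2% higher and 9.21% lower. Of 8 tested, 7 passed higher in hyp/hyp plants and none lower, 3 of them called (QQS and CNI1, which act in carbon and nitrogen use as given above, and the peroxidase gene AT3G32980), and 5 passed higher in hyp/c-1 plants. BIP1, the ER chaperone that binds unfolded proteins, had 76.6, 74.0 and 79.0 TPM in WT, 113, 121 and 144 in hyp/hyp plants and 144, 138 and 166 in hyp/c-1 plants. It rose without overlap, by 0.70 (adjusted p = 0.00192 by limma) and 0.95 (adjusted p = 0.000284). PMAT2, a malonyltransferase of phenolic glucosides, rose in hyp/hyp plants (0.88, adjusted p = 0.0117 by limma) and did not pass in hyp/c-1 plants (0.59, adjusted p = 0.0595). The resistance gene AT5G35450 and the methyl esterase gene MES11 passed higher in both, at 0.48 and 0.50 in hyp/hyp plants and 0.44 and 0.40 in hyp/c-1 plants. OS9 did not pass.

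Hormone, light and growth genes moved both ways. Of 15 tested, 2 passed higher and 3 lower in hyp/hyp plants, and 5 higher and 2 lower in hyp/c-1 plants, with medians of 0.21 and 0.12. Of the 5, AN3 was under 1 TPM in all WT libraries and became a member through the mutants. LSH1, a regulator of light-dependent seedling growth, rose from 5.01 ± 0.514 TPM in WT to 8.34 ± 1.14 in hyp/hyp plants and 9.68 ± 0.902 in hyp/c-1 plants (adjusted p = 0.00545 and 0.00136 by limma). The gibberellin receptor gene GID1C passed higher in both at 0.41 and 0.54. BR6OX2, which catalyses the last steps of brassinosteroid synthesis, had 24.9, 29.7 and 23.4 TPM in WT, 14.4, 17.4 and 14.8 in hyp/hyp plants and 16.3, 14.3 and 17.4 in hyp/c-1 plants. It fell by 0.70 (adjusted p = 0.00318 by limma) and by 0.66 (adjusted p = 0.00376), with no overlap with WT. NEK3, a kinase of the NIMA family, passed lower in both (-0.35 and -0.46), and the cytokinin receptor gene HK2 passed lower in hyp/hyp plants (-0.66). AN3, a coactivator of leaf cell proliferation, had 0.722, 0.906 and 0.770 TPM in WT, 1.65, 1.64 and 0.758 in hyp/hyp plants and 1.42, 1.71 and 1.89 in hyp/c-1 plants. BZO2H3, a bZIP factor with the highest expression of the list, did not pass in either.

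The 18 plastid and primary metabolism genes had medians of -0.06 in both mutants, below those of all genes. In hyp/hyp plants 7 passed lower and 1 higher, and in hyp/c-1 plants 2 passed lower and 4 higher. GS2, the plastid glutamine synthetase, had 1075, 1016 and 1033 TPM in WT, 839, 840 and 767 in hyp/hyp plants and 910, 932 and 975.4 in hyp/c-1 plants. All mutant libraries lay below WT, and the fall passed in hyp/hyp plants (-0.35, adjusted p = 0.00865 by limma) but not in hyp/c-1 plants (-0.15, adjusted p = 0.189). CAC2, a subunit of the plastid acetyl-CoA carboxylase that starts fatty acid synthesis, fell by 0.47 and 0.48 (adjusted p = 0.00395 and 0.00338 by limma). HCF109, a release factor of plastid translation, fell by 0.39 in both (adjusted p = 0.00463 and 0.00403). DES1, a cysteine desulfhydrase, passed higher in hyp/c-1 plants (0.73, adjusted p = 0.0303 by limma), and ERD5, a proline dehydrogenase, was at -1.03 there without passing (adjusted p = 0.0603). Leaf markers that also serve photosynthesis did not move together. RBCS1A, a Rubisco small subunit gene, had 15339 to 16637 TPM in WT and 9375 to 10897 in hyp/hyp plants. In hyp/c-1 plants it had 10353 to 15835 TPM, which overlapped WT. LHCB2.1, a light-harvesting gene, had 1699 to 2250.2 TPM in WT, 2173 to 3682 in hyp/hyp plants and 4070.2 to 5361 in hyp/c-1 plants, and CAB3, of the same family, overlapped WT in both mutants. Their part in the values of the plastid genes was not tested.

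Of 13 tested genes of chromatin, replication and the chromosome, 1 passed in hyp/hyp plants and none in hyp/c-1 plants, with medians of 0.06 and -0.05. AL3, an Alfin-like reader of histone H3, had 68.2 ± 3.34 TPM in WT and 89.0 ± 9.29 in hyp/hyp plants (0.37, adjusted p = 0.0282 by limma). CHR38, the CLASSY1 remodeller of RNA-directed DNA methylation, had 3.50 ± 0.51 TPM in WT, 5.79 ± 1.32 in hyp/hyp plants and 5.78 ± 1.96 in hyp/c-1 plants and did not pass (adjusted p = 0.0752 and 0.0872 by limma). HTA7, a histone H2A gene, and MIS12, of the kinetochore, did not pass. Of 9 ribosome, translation and RNA genes, AT5G27850 was the only one called, and AT5G27770 for ribosomal protein L22 was at -0.20 and 0.01 without passing. The 2 members among 11 listed genes of reproduction, FIM5 and COBL2, did not pass.

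Between the mutants, the shares of members that passed were near those of all tested genes, at 0.535% by call and 2.67% by adjusted p alone. Members that did not pass are not shown to be alike in both mutants. Of 187 tested, 1 was called, and it was lower in hyp/c-1 plants, where 0.52% of all tested genes were called and 0.294% were lower. By adjusted p alone 2 passed higher and 3 lower, where 2.84% of all tested genes passed, 1.92% higher and 0.922% lower. None of these passed in a fit of only the 2 mutants, where the lowest adjusted p of a member was 0.0943 by limma and 33 members had an unadjusted p under 0.05. In the fit of all 9 libraries, 46 members had an unadjusted p under 0.05 by limma. The matching shares over all genes are not given here. No member of the functional lists passed. The median log2 difference of hyp/c-1 from hyp/hyp was -0.04 for the members and -0.06 for the arms, and the members' median turned to 0.02 under quantile normalization. Leaving out 1 library moved it between -0.113 (without hyp/c-1 replicate 1) and -0.0138 (without hyp/hyp replicate 3), and without both replicates 3 it was 0.0039. The called member was AT3G43250, with a DUF572 domain found in splicing factors, at 0.822, 0.952 and 1.30 TPM in WT, 1.59, 2.20 and 4.59 in hyp/hyp plants and 0.888, 0.441 and 0.0691 in hyp/c-1 plants. The groups of mutants did not overlap (log2 difference -1.33, SE 0.28, adjusted p = 0.0425 by limma), but the call was lost under 13 alternatives, among them without any 1 of the WT libraries, without replicate 2 or 3 of either mutant, and without the replicates 3 of both mutants together (-0.80, adjusted p = 0.116). The count of called members was 4 without hyp/hyp replicate 1 and 2 without hyp/c-1 replicate 1. In the fit of all 9 libraries, the other members that passed did so by adjusted p alone and were not called. They were AT5G36160, a tyrosine transaminase gene (0.49, adjusted p = 0.0246 by limma), AT5G28910 (0.89, adjusted p = 0.027), the F-box gene AT5G27920 (-0.82, adjusted p = 0.0414) and AT5G29560, described above. AT5G28910, annotated as a fucosyltransferase, had 1.39, 1.29 and 1.91 TPM in WT, 1.43, 1.39 and 1.201 in hyp/hyp plants and 3.22, 2.80 and 4.10 in hyp/c-1 plants, so only hyp/c-1 stood above WT.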

How the data were processed

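The 9 leaf RNA-seq libraries of 3 genotypes were grouped by the labels. Per the submitters' processing notes, fastp 0.20.1, HISAT2 2.1.10 and DESeq2 1.26.0 were used with the build TAIR10; the counter and the use of strand are not given in the sources used here. The deposited table holds TPM for 27655 genes, summing to 1000000 in each library. TPM multiplied by the whole gene span, introns included, gave whole reads (within 0.02 read) for 99.98% of 191811 values, so the authors' TPM divides by span. Names, coordinates and sequences came from RefSeq TAIR10.1, which matched 27445 genes and all members.

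Values were tested as log2(TPM + 1), a pseudocount of 1 that understates changes of low genes, with limma 3.58.1 in R 4.3.3 (one fit of 9 libraries, expression trend, only genes averaging 1 TPM or more, two-sided p-values adjusted by Benjamini-Hochberg over all 17682 genes). The test was also run on data simulated with the means and spread of these libraries. Promoters were aligned with Biopython 1.88. Ratios of reads carry exact 95% intervals on the pooled reads of each genotype, which leave out the spread between replicates. Members and lists were chosen with earlier results of these data known. Named were the called members, in each list the most expressed and the most and least changed gene, untested members with separated groups, and members at the threshold; other list genes were named after their values were seen. Alternatives are given in the closing section.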

Additional observations from a re-analysis of the deposited data

How the results depend on the processing

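No call of a member against WT or between the mutants changed direction under any alternative run. Of 32 calls, 25 held under every alternative with a value and 7 were lost under at least 1. With only members at 1 TPM or more in a WT library, 11 members were called in hyp/hyp plants and 8 in hyp/c-1 plants. By adjusted p alone, 53 and 36 of these members passed. Over all 187 tested members, 60 and 44 passed by adjusted p alone, where 20.8% and 20.4% of all tested genes did. Leaving out 1 library at a time gave 14 to 18 and 14 to 19 calls over all 187 tested members. These counts and the 32 calls hold the members that entered through their mutant values, so they are a description only. The same counts for members expressed in WT alone are not given here. The hyp/hyp median fell from 0.157 to 0.0847 with quantile normalization and 0.0911 when libraries were centred on the arms. Between the mutants, the count of 1 became 0 with no expression minimum, with a mean of at least 5 TPM, with only the 2 genotypes compared, with a replicate block and without both replicates 3 (an alternative added after seeing the data), 5 by adjusted p alone, and 0 to 4 on leaving out 1 library. None of the 5 passed with the block (lowest adjusted p 0.0678, that of AT5G29560) or with only the 2 genotypes (0.0943). Where it was 0 in limma, 38 members (block) and 33 (2 genotypes) had an unadjusted p under 0.05. The hyp/c-1 median of 0.0726 ranged from 0.0455 to 0.128 on leaving out 1 library. The cause was not tested. AT5G28610 lost its call under 13 alternatives, the block among them, AT3G43250 under 13, AT3G32920 under quantile normalization, XGD1 under 6 alternatives, AT5G35480 in hyp/hyp plants under 5 and AT5G35740 under 3. Deviations of same-numbered libraries had mean correlations of 0.0163, -0.113 and -0.12. With 3 libraries per genotype these values cannot show whether libraries of the same number were paired. With the number as a block, 16, 15 and 0 members were called. Counting depth limits the members with 0 or 1 read in WT.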

Other observations

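A further 8 loci of the ranges reached 1 TPM in a mutant library and had no read in any WT library, so they were not members; on the arms 10 of 11294 loci did. AT5G28810, annotated in the Ulp1 protease family, had 84, 51 and 82 reads in hyp/hyp plants and 132, 65 and 76 in hyp/c-1 plants. AT5G30360, uncharacterised, had 12, 17 and 30, then 44, 19 and 22. AT5G28560 averaged 1.98 TPM in hyp/hyp plants and 2.26 in hyp/c-1 plants on 6 to 12 reads per library. AT3G30820, annotated as a retrotransposon ORF-1 protein, had 4, 16 and 14 reads, then 12, 15 and 10. The others, AT3G43150, AT5G29050, AT5G30520 and the cytochrome P450 pseudogene CYP79A4P, had 0 to 16 reads in a mutant library. These loci were chosen by their absence in WT, and their values are a description with no test.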
